A study of Mus musculus with 4 samples.

Results

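Leukocyte surface receptors and integrins were followed in granulocyte-monocyte progenitors, which lie upstream of neutrophils and monocytes in the bone marrow. The genes were chosen by name: every gene with a listed transcript whose symbol marked it as a CD antigen, an interleukin, interferon, colony-stimulating factor, chemokine, Toll-like, TNF or Fc gamma receptor, an integrin or a C-type lectin, apart from 5 genes left out by that rule. This gave 71 genes of 5059 and 110 transcripts of 8219. The groups were MST1-deficient mice, with 2 libraries, and wild-type mice, with 2 libraries, and each library held progenitors pooled from 10 mice. All cells were sorted from bone marrow, placed in serum-containing culture medium and given no drug. The promoter or method behind the deficiency, the strain, the sex and the age of the mice are not stated in the labels. The labels do not name the gene, and MST1 was taken to be the Hippo kinase encoded by Stk4.

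Receptors of these families let a blood cell read its surroundings: cytokine receptors pass signals through JAK kinases, Toll-like and IL-1 type receptors through shared cytoplasmic adaptors, and integrins hold cells to matrix or to other cells once they have been switched on from inside. In lymphocytes MST1 acts in that switching step, downstream of the small GTPase Rap1 and its effector RAPL, for the integrin LFA-1. Progenitors of this stage carry few of the receptors of mature cells, and the sorting gate itself rests on such surface molecules.

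Each library was a list of RNA-seq transcripts that lay outside the reference annotation, called unannotated transcripts here. The value of a gene is therefore the sum of those transcripts and not the full level of its mRNA. FPKM relates the estimated counts of a transcript to its length and to the size of the library, and 0 stands for a transcript that a library did not list. The listed transcripts summed to between 928977 and 1079382 estimated counts per library. The receptor and integrin transcripts made up 1.13% and 0.998% of these counts in MST1-deficient replicates 1 and 2, and 1.26% and 1.02% in wild-type replicates 1 and 2. Of 15 marker genes of the progenitor stage only Kit, Gfi1 and Runx1 had a listed transcript, so the cell type could not be checked against the others, such as Mpo and Elane. Of the surface molecules that take part in sorting these cells, Cd34, Fcgr3 and Il7r had no unannotated transcript in the lists used here. The summed FPKM of 4 Y chromosome genes was 23.4 and 14.8 in the MST1-deficient libraries and 3.60 and 0 in the wild-type ones, and whether the sex of the pooled mice enters the values below was not tested.

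No receptor gene passed the threshold between the genotypes, and the lowest fold changes belonged to Cd300 genes. Cd300 proteins are paired immunoglobulin-like receptors of myeloid cells, some inhibitory and some activating, that recognise lipids on other cells. The 8 listed genes of the family lie close together on chromosome 11, between 114889152 and 115135372 (GRCm38.p6, the build of mm10). They were singled out after their values were seen. A stretch of 113 bases before each of Cd300ld3 and Cd300ld4 is shown because these neighbours turned out to be near copies of each other there. The stretches are from RefSeq, GRCm38.p6, read on the strand of the genes. They begin 250 bases before the 1 start site that the RefSeq promoter table gives for each gene, and they end before the annotated span of the gene, which reaches past that start site. Capitals mark a match to a motif searched on both strands: GAGGAAGT, bound by the ETS family of myeloid factors, TTGCNNAA, bound by C/EBP factors, or TGTGGTT, bound by RUNX factors.

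Cd300ld3 (chr11:115048468-115048580, minus strand): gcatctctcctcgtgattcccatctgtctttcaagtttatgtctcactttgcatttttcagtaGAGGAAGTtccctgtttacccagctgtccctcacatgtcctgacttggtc
Cd300ld4 (chr11:115027071-115027183, minus strand): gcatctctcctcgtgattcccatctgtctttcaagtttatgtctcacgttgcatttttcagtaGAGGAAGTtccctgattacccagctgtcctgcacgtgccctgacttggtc

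The stretches of Cd300ld3 and Cd300ld4 were identical at 107 of 113 bases (94.7%). Both held 1 match to GAGGAAGT and none to the other motifs. Of 32851 stretches of the same length and position in the RefSeq table, 0.889% held GAGGAAGT, 4.65% TTGCNNAA and 1.97% TGTGGTT. Of the 70 stretches belonging to 60 of the receptor and integrin genes, 2 held GAGGAAGT, 3 held TTGCNNAA and 0 held TGTGGTT. The 2 with GAGGAAGT were the near copies of Cd300ld3 and Cd300ld4 shown above, so they do not count as separate finds. A match describes the letters and does not show that a factor binds.

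Cd300ld3 (gene 382551, 115042104 to 115048419), one of the CD300LD-like genes of the cluster, had 6.39 and 1.54 FPKM in MST1-deficient replicates 1 and 2, against 26.0 and 13.3 FPKM in wild-type replicates 1 and 2. Both MST1-deficient values lay below both wild-type values. The log2 fold change of counts, MST1-deficient over wild type, was -2.32 with an SE of 0.695, and it did not pass (edgeR quasi-likelihood test, adjusted p = 0.748, unadjusted p = 0.0239). With DESeq2 the adjusted p was 0.0709, the lowest of the alternatives run, and the highest was 0.999. The log2 fold change was -3.47 when MST1-deficient replicate 1 was left out and -1.69 when replicate 2 of that group was left out. In bulk RNA a lower value can come from fewer cells of a type or from less RNA per cell, and these cannot be told apart.

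Cd300ld4 (gene 100043123), the neighbouring copy, had 0 and 0.920 FPKM in the MST1-deficient libraries, against 19.2 and 5.56 FPKM in the wild-type ones. These values rested on 0 and 7.30 estimated counts against 130 and 36.1, so the fold (log2 -4.39, SE 1.52, edgeR adjusted p = 0.834) depended on very few counts. It was -3.43 with MST1-deficient replicate 1 left out. With replicate 2 of that group left out it was -9.30, but the library that remained in the group had 0 counts, so this is not a measured fold. Without either wild-type library the gene was not tested. Its annotated span also overlaps that of Cd300c2. The transcript sequences of Cd300ld3 and Cd300ld4 were not compared, and how far reads were shared between them was not tested, so their separate values are uncertain.

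Cd300e (gene 217306), an activating receptor of monocytes, had 2.93 and 0.340 FPKM in the MST1-deficient libraries and 11.02 and 4.70 FPKM in the wild-type libraries. Cd300a (gene 217303), an inhibitory receptor, had 2.79 and 1.39 FPKM against 4.81 and 3.86 FPKM in wild type. In both genes the groups did not overlap. The log2 fold changes were -2.31 (SE 1.01) for Cd300e and -1.03 (SE 0.390) for Cd300a, with edgeR adjusted p-values of 0.912 and 0.883. With MST1-deficient replicate 1 left out, Cd300e was at -4.35 and Cd300a at -1.43. With replicate 2 of that group left out, Cd300e was at -1.50 and Cd300a at -0.72.

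The groups overlapped for 3 of the other Cd300 genes. Cd300c2 had 10.7 and 4.28 FPKM in MST1-deficient libraries against 22.8 and 9.23 FPKM in wild type, and Cd300lb, an activating member, had 13.1 and 3.49 against 14.3 and 9.21 FPKM. Cd300lf, an inhibitory member known as the receptor of murine norovirus, had 17.2 and 21.9 FPKM in the MST1-deficient libraries and 21.9 and 16.9 FPKM in the wild-type ones. Cd300c was listed in the MST1-deficient libraries alone, on 8 counts and 1 count, and was too low to be tested.

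**Figure D1:**
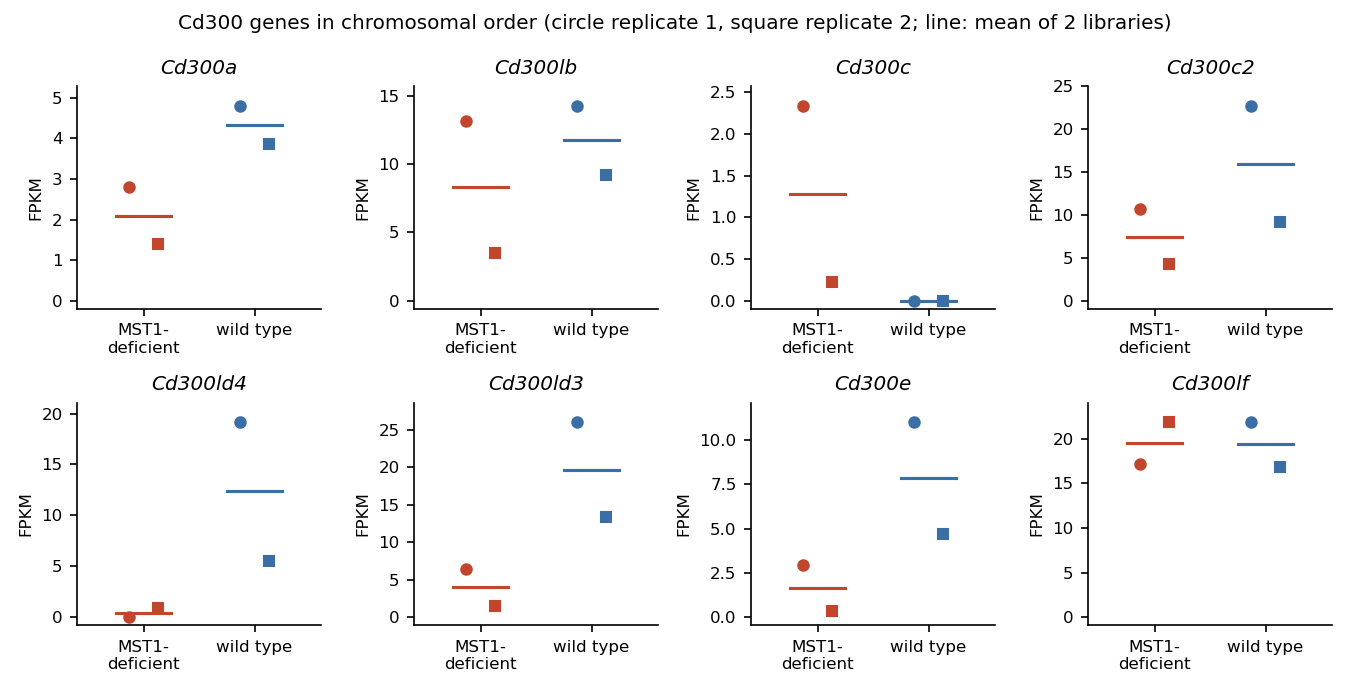
FPKM of the 8 listed Cd300 genes in chromosomal order, with MST1-deficient libraries on the left and wild-type libraries on the right of each panel (circle replicate 1, square replicate 2, line the mean of 2 libraries). Both MST1-deficient values lie below both wild-type values for Cd300a, Cd300ld4, Cd300ld3 and Cd300e, while Cd300lf overlaps and Cd300c is at 0 in wild type.

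Summed over the 8 genes, Cd300 transcripts had 55.4 and 34.0 FPKM in the MST1-deficient libraries and 120 and 62.7 FPKM in the wild-type ones. Replicate 1 was above replicate 2 in both groups. The 7 tested Cd300 genes had negative log2 fold changes, between -4.39 and -0.11, with a median of -1.03, except that Cd300lf was at 0.01 with limma on FPKM, at 0.12 without MST1-deficient replicate 1 and at 0.05 without wild-type replicate 1, and Cd300lb was at 0.07 without MST1-deficient replicate 2. Of all 3221 tested genes 48.9% were negative, and the median was 0.01. Without wild-type replicate 1 the Cd300 median was -0.62 over 6 genes, as Cd300ld4 was then not tested. Without MST1-deficient replicate 1 it was -1.53 over 7 genes. The 7 other listed genes within 500 kb of the cluster had 4 tested among them. Their log2 fold changes lay between -0.66 and 0.05, with a median of 0.02. The groups overlapped in each, while 18.8% of all genes tested had lower and 14.0% higher values without overlap. Of the 10 monocyte and macrophage markers, Ccr2, Mertk and C1qa were listed, and their summed FPKM was 52.7 and 23.4 in the MST1-deficient libraries against 43.5 and 29.4 in wild type. Nearly all of this was Ccr2, itself one of the receptor genes, with 52.5 and 23.4 against 43.1 and 29.4 FPKM. The defining markers Ly6c2, Adgre1 and Cx3cr1 had no listed transcript, and the part of other cells in the Cd300 values was not tested.

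Across the families, 48 of the 71 genes reached 1 FPKM in at least 2 libraries and were tested, and 0 passed (0% of all 3221 genes tested passed with edgeR). The lowest adjusted p among these genes was 0.748. DESeq2 and limma also called 0 of them, while over all genes they called 1.43% and 0.186%. At an unadjusted p under 0.05 there were 3 receptor genes, Cd300ld3, Cd226 and Cd300ld4, or 6.25% against 5.65% of all genes tested. All 3 had lower values in MST1-deficient cells, against 2.64% of all genes in that direction, and 0 had higher values, against 3.01%. How far reads were shared between Cd300ld3 and Cd300ld4 was not tested, so these genes may not count as separate finds. With the replicate number added to the model, 7 receptor genes and 208 of all genes had an unadjusted p under 0.05. With the main settings 182 of all genes did. The groups did not overlap for 10 receptor genes with lower values (20.8%, against 18.8% of all genes tested) and for 3 with higher values (6.25%, against 14.0%). The 3 with higher values were Clec5a, Itgal and Cd2bp2. Of the 48 genes, 24 had positive and 24 negative log2 fold changes. The 23 untested genes had a mean of at most 1.06 FPKM.

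**Figure D2:**
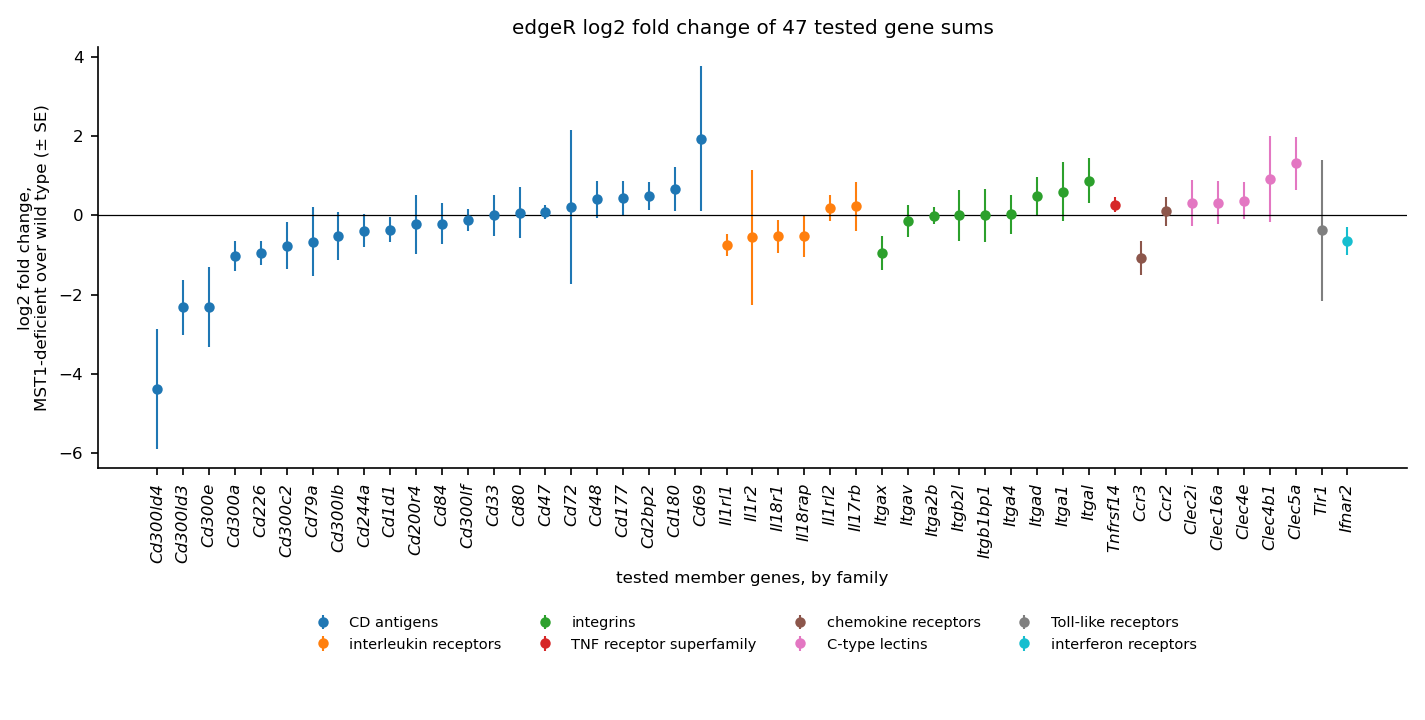
Log2 fold change of counts, MST1-deficient over wild type, with its SE from edgeR (y axis) for 47 of the 48 tested genes (x axis), coloured by family and ordered within it. The lowest values belong to Cd300ld4, Cd300ld3 and Cd300e, the 5 genes named as C-type lectins lie above 0 with these settings, and no gene drawn passed the adjusted threshold.

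Cd226 (gene 225825, chromosome 18), an activating adhesion receptor of lymphocytes and NK cells that binds nectin-like ligands, had the most even replicates of the genes whose groups did not overlap below an unadjusted p of 0.05. It had 3.57 and 3.98 FPKM in the MST1-deficient libraries against 8.02 and 7.39 FPKM in wild type, with a log2 fold change of -0.96 (SE 0.301, edgeR adjusted p = 0.775). Its 2 transcripts, of 4231 and 5560 bases, had log2 fold changes of -0.92 and -1.05. The longer form made up between 23.9% and 28.4% of its FPKM in every library. Of 10 marker genes of T and NK cells, 5 were listed, with summed FPKM of 21.7 and 11.8 in MST1-deficient libraries and 22.6 and 13.5 in wild type. The sum joins genes of unlike direction. Of the 3 tested, Ncr1 was positive (9.86 and 7.63 against 5.41 and 4.93 FPKM). The other 2, Tcf7 and Klrb1c, were negative, and Klrb1c had 3.56 and 0 against 11.5 and 0.78 FPKM. Zap70, too low for a test, had 1.5 and 0.81 against 0.51 and 0.45 FPKM. Cd3e, Cd3d and Lck had no listed transcript, and the part of such cells in the Cd226 value was not tested.

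Among the cytokine receptors, the receptor of IL-33 had separate groups and its relatives had overlapping ones. Il1rl1 (gene 17082, chromosome 1), which encodes the IL-33 receptor ST2 of mast cells, basophils and eosinophils, had 7.70 and 7.89 FPKM in the MST1-deficient libraries against 11.9 and 15.4 FPKM in wild type. The groups did not overlap, and the log2 fold change was -0.74 (SE 0.279, edgeR adjusted p = 0.883), or -0.46 without wild-type replicate 2. Ccr3 (gene 12771, chromosome 9), the eotaxin receptor of eosinophils and basophils, had 2.56 and 3.32 FPKM against 5.52 and 7.47 FPKM in wild type, a log2 fold change of -1.07 (SE 0.423, edgeR adjusted p = 0.891), which lay between -1.45 and -0.74 with each library left out in turn.

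Il5ra, the IL-5 receptor chain of eosinophils, had 0.470 and 0.290 FPKM in the MST1-deficient libraries and 0.200 and 0.880 FPKM in wild type, below the level needed for a test. Of 11 markers of eosinophils, basophils and mast cells, 5 were listed, and their summed FPKM was 113 and 127 in MST1-deficient libraries against 152 and 191 in wild type. Epx, Prg2, Mcpt8 and Cpa3 had no listed transcript. The 4 tested markers of the list (Prg3, Ms4a2, Gata2 and Alox15) had lower values in both MST1-deficient libraries, as Il1rl1 and Ccr3 did and as 18.8% of all genes tested did. Hdc, the fifth listed marker and the enzyme that makes histamine, had 0.340 and 0.340 FPKM in MST1-deficient libraries against 0.250 and 0.200 FPKM in wild type and was too low for a test. The part of such cells in those values was not tested.

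Il1rl1 belongs to a run of 6 IL-1 and IL-18 receptor genes on chromosome 1, between 40084692 and 40551707. Il18r1, the ligand-binding chain of the IL-18 receptor, had 11.2 and 9.94 FPKM in the MST1-deficient libraries and 9.40 and 22.2 FPKM in wild type, with the last value alone standing apart. Il18rap, the accessory chain, had 6.89 and 2.54 FPKM against 9.39 and 4.26, and Il1rl2, the receptor of IL-36, had 4.67 and 3.37 against 3.22 and 3.97. Il1r2, the decoy receptor of IL-1, was at 0 in MST1-deficient replicate 1 and had 1.46 FPKM in replicate 2, against 1.89 and 0.720 FPKM in wild type. Il1r1, the signalling receptor of IL-1, was listed in 1 library with 1.02 counts. The 5 tested genes of the run had a median log2 fold change of -0.53.

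Of the 13 listed interleukin receptor genes, 6 were tested, 2 with positive and 4 with negative values and a median log2 fold change of -0.52. With each library left out in turn that median lay between -0.46 and -0.04, where -0.04 was the value without wild-type replicate 1. Il17rb, a chain of the IL-25 receptor, had 1.49 and 2.69 FPKM in MST1-deficient cells and 2.10 and 1.75 FPKM in wild type. Csf2rb, the shared signalling chain of the receptors of GM-CSF, IL-3 and IL-5, had 0 and 1.11 FPKM against 0.400 and 0.860 FPKM. Among the genes kept by the rule it was the 1 colony-stimulating factor receptor listed. Ifnar2 (gene 15976, chromosome 16), a chain of the type I interferon receptor, had 3.60 and 3.62 FPKM in MST1-deficient libraries against 6.99 and 4.90 FPKM in wild type. Its groups did not overlap and its log2 fold change was -0.64 (SE 0.351, edgeR adjusted p = 0.943).

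Chemokine and TNF receptors included some of the highest levels. Ccr2, the receptor that draws monocytes and their precursors out of the marrow, had 52.5 and 23.4 FPKM in the MST1-deficient libraries and 43.1 and 29.4 FPKM in wild type. The spread between replicates was larger than the difference between the genotypes (log2 fold change 0.11, SE 0.366). Tnfrsf14, the herpesvirus entry mediator that engages the lymphocyte receptor BTLA, had 34.2 and 26.9 FPKM against 24.99 and 27.1 FPKM in wild type (log2 fold change 0.27, SE 0.187, edgeR adjusted p = 0.992). Tnfrsf9, the costimulatory receptor 4-1BB, was listed in MST1-deficient replicate 1 alone, with 4.82 counts.

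**Figure D3:**
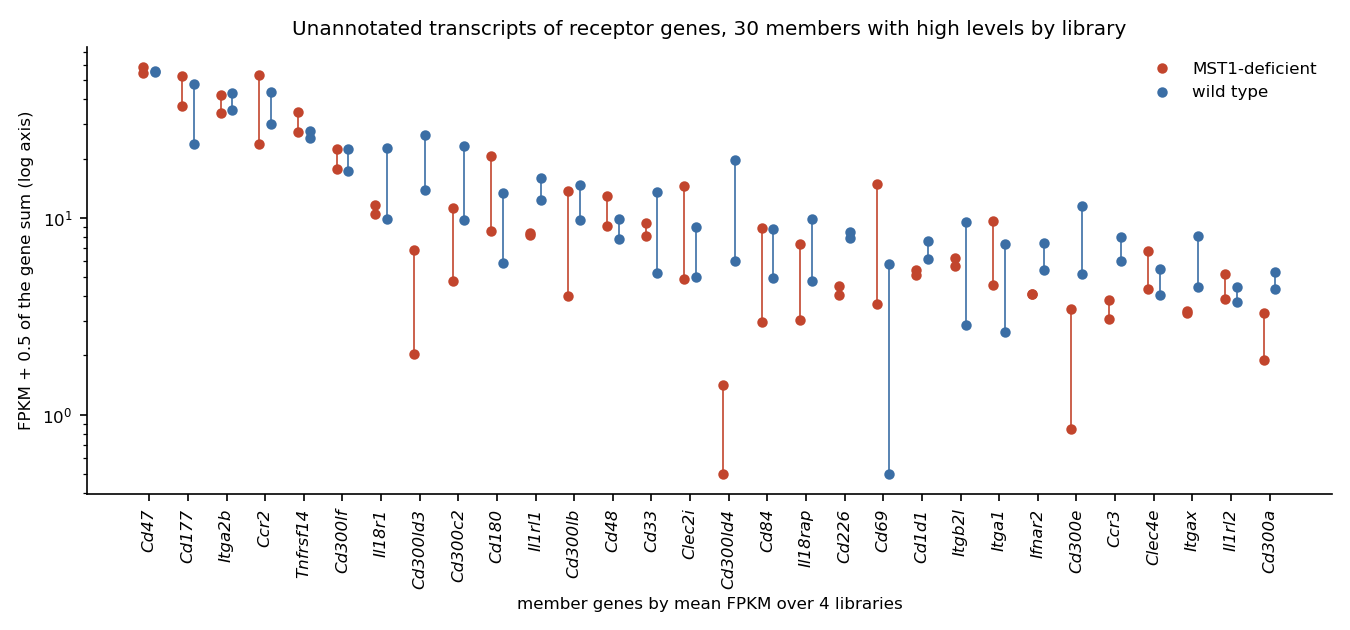
FPKM + 0.5 of the gene sum on a log axis for 30 receptor and integrin genes with high means, with 2 MST1-deficient libraries on the left and 2 wild-type libraries on the right at each gene, joined by a line. Cd47 holds the highest mean, at 55.4 FPKM, with all 4 libraries close together, while Cd69 differs widely between the 2 wild-type libraries.

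Among the CD antigens, 28 were listed and 23 tested, 9 with positive and 14 with negative log2 fold changes and a median of -0.23, and this median lay between -0.50 and 0.04 with each library left out in turn. Cd47, the ligand that protects cells from being engulfed, had 57.8 and 53.8 FPKM in MST1-deficient libraries and 55.5 and 54.5 FPKM in wild type, the highest mean of all receptor genes. Cd177, a surface glycoprotein of neutrophils, had 36.4 and 51.9 FPKM against 47.2 and 23.2 FPKM in wild type, with the groups overlapping. Cd48, a SLAM family ligand used to separate stem cells from progenitors, had 8.57 and 12.4 FPKM against 7.33 and 9.35 FPKM. Cd180, a receptor of B cells and myeloid cells related to Toll-like receptors, had 20.3 and 8.09 FPKM against 12.8 and 5.38 FPKM. Cd1d1, which presents lipids to NKT cells, had 4.92 and 4.6 FPKM against 7.10 and 5.70 FPKM, without overlap (log2 fold change -0.36, SE 0.320, edgeR adjusted p = 0.992). Cd69, an early activation receptor, had 3.14 and 14.5 FPKM against 5.30 and 0 FPKM, with wide spread in both groups. Cd84 and Cd244a, receptors of the SLAM family, had between 2.06 and 8.34 FPKM with overlapping groups. Cd33, an inhibitory siglec of myeloid cells, had 7.55 and 8.90 FPKM against 13 and 4.75 FPKM.

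Cd79a and Cd72, receptors of the B lineage, differed between the wild-type libraries. Cd79a, a signalling chain of the B cell receptor, had 1.07 and 0.580 FPKM in the MST1-deficient libraries against 2.23 and 0.510 FPKM in wild type. Cd72, an inhibitory coreceptor, had 0.470 and 3.07 FPKM against 3.60 and 0.05 FPKM in wild type. The groups overlapped in both genes. Pax5, the transcription factor that marks the B lineage, had 3.31 and 2.85 FPKM in MST1-deficient libraries against 7.95 and 0 FPKM in wild type. The markers Cd79b, Ms4a1 and Ebf1 had no listed transcript, and the part of B cells in these values was not tested.

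The genes named as integrins had 13 listed, of which 9 were tested, 6 with positive and 3 with negative values. The median log2 fold change was 0.01, the value of Itgb1bp1, which encodes an intracellular protein. Without wild-type replicate 1, with the filter applied anew, that median was 0.74. Itga2b, the alpha chain of the platelet fibrinogen receptor, had 41.4 and 33.8 FPKM in the MST1-deficient libraries and 34.7 and 42.8 FPKM in wild type. Itgal, the alpha chain of LFA-1, had 2.08 and 3.59 FPKM against 1.78 and 1.67 FPKM in wild type. Both MST1-deficient values were higher, by 0.88 on the log2 scale of counts (SE 0.575, edgeR adjusted p = 0.992).

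Itgax, the integrin chain known as CD11c, found on dendritic cells and some macrophages, had 2.77 and 2.87 FPKM in MST1-deficient libraries against 7.62 and 3.96 FPKM in wild type (log2 fold change -0.94, SE 0.433, edgeR adjusted p = 0.929), and without wild-type replicate 1 the fold change was -0.52. Of 9 dendritic cell markers, Zbtb46 and Irf4 were listed, with summed FPKM of 1.6 and 1.8 against 3 and 2 in wild type, and their part in the Itgax value was not tested. Itgad, the alpha D chain and neighbour of Itgax, had 3.04 and 1.64 FPKM against 2.16 and 1.27 FPKM. Itga1, a collagen receptor chain, had 9.13 and 4.04 against 6.84 and 2.12 FPKM, and Itgav, a vitronectin receptor chain, had 3.05 and 2.56 against 2.32 and 3.97 FPKM. Itga6, a laminin receptor chain, had 0.820 and 0.1 FPKM against 0.920 and 2.38 FPKM, without overlap but too low for a test. Itgb2l, a relative of the beta chain of leukocyte integrins, had 5.16 and 5.74 FPKM in MST1-deficient libraries and 9.05 and 2.34 FPKM in wild type. Itgb3bp and Itgb1bp1 encode intracellular proteins and were included by name alone, as were Cd2bp2 and Clec16a. Itgb3bp had 37.5 and 6.52 counts in MST1-deficient cells and was at 0 in wild type, at least 7.60-fold higher when set against 3 counts for each wild-type library, and was too low for a test. Without MST1-deficient replicate 1 the bound was 2.27-fold.

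The 5 tested genes named as C-type lectins, with Clec16a among them by name alone, had positive log2 fold changes. Their median was 0.37, and 0.90 over the 4 tested without wild-type replicate 1. The groups overlapped in each of the 5 genes apart from Clec5a. Of all 3221 tested genes, 1647 were positive. Without MST1-deficient replicate 1 Clec2i and Clec16a were at -0.54 and -0.03, without wild-type replicate 2 they were at -0.04 and -0.15, and without MST1-deficient replicate 2 Clec4e was at -0.23. Clec5a (gene 23845, chromosome 6), an activating receptor of myeloid cells that signals through DAP12, had 1.72 and 3.99 FPKM in MST1-deficient libraries against 1.44 and 1.06 FPKM in wild type. The groups did not overlap, and the log2 fold change was 1.32 (SE 0.664, edgeR adjusted p = 0.943), or 0.35 without MST1-deficient replicate 2. Clec4b1, a lectin gene of the Clec4 cluster, had between 0.390 and 1.71 FPKM. Clec4e, the receptor Mincle for mycobacterial glycolipids, had 3.87 and 6.30 FPKM against 4.99 and 3.54 FPKM, with overlap.

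The Toll-like receptors were low. Tlr1, which pairs with Tlr2 to detect bacterial lipopeptides, had 2.54 and 0 FPKM in MST1-deficient libraries against 1.71 and 1.37 FPKM in wild type. Tlr8 had 0 and 0.690 FPKM against 0 and 1.61 FPKM, so it was listed in both replicates numbered 2 and in neither numbered 1. Tlr2 had 0.530 and 0.400 FPKM against 0.340 and 0.370 FPKM, without overlap but below the level for a test. Tlr5 and Tlr6 were listed in wild-type replicate 1 alone, on 2.95 and 21.4 counts. Tlr1 was the 1 tested gene of the 5 listed. No Fc gamma receptor was among the genes kept by the rule, and the 5 genes it left out are not counted here.

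At the level of single transcripts, 0 of 71 receptor transcripts passed (0% of all 4661 transcripts tested), and the lowest adjusted p was 0.938 (edgeR). DESeq2 and limma also called 0 of them, against 2.15% and 0.129% of all transcripts. Of the 71, 42 had negative log2 fold changes (59.2%, against 50.6% of all). There was 1 at an unadjusted p under 0.05, a form of Cd300ld3 of 2473 bases with 7.38 and 8.65 counts in the MST1-deficient libraries and 93.4 and 20.3 counts in wild type, or 1.41% against 5.26% of all transcripts. By direction the background was 2.98% with lower and 2.27% with higher values. Under the settings that used all 4 libraries, the number of receptor transcripts at that unadjusted p ranged from 1 to 6. Over all transcripts it was 245 with the main settings and ranged from 185 to 376. The main form of Cd300ld3, of 2723 bases, had 106 and 24.6 counts against 433 and 233 counts in wild type. A form of Cd300c2 of 1227 bases had 3.80 and 2.24 FPKM against 14.4 and 5.25 FPKM, with no overlap, while the form of 3520 bases had 6.87 and 2.04 FPKM against 8.42 and 3.98 FPKM, with overlap. The groups did not overlap for 17 receptor transcripts with lower values (23.9%, against 19.9% of all) and 3 with higher values (4.23%, against 13.7%).

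Of the 110 receptor transcripts, 66 were listed in all 4 libraries, against a share of 60.5% of all transcripts, and 15 in 1 library (13.6%, against 12.8%). Both MST1-deficient libraries and neither wild-type library listed 4 (3.64%, against 2.23%), and both wild-type libraries alone listed 1 (0.909%, against 1.97%). The most abundant of these was a form of Tnfrsf14 of 4658 bases, with 234 and 31.8 counts in MST1-deficient cells. Wild type had 0 in each library, so the form was at least 45.8-fold higher when 3 counts per library stand for a count of 0, but at least 11-fold without MST1-deficient replicate 1. It reached 1 FPKM in 1 library and was not tested. It made up 21.9% and 3.10% of the gene's FPKM in the MST1-deficient libraries, and the form of 4660 bases, which had 836 and 1006 counts against 902 and 909 counts in wild type, made up the rest. The forms are nearly equal in length, and how the reads were divided between them is uncertain. Forms of Itgb3bp and Cd300c were also listed in the MST1-deficient libraries alone, and a form of Cd46 in the wild-type ones alone, with 5.63 and 3 counts.

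The balance among transcripts could be tested in 13 receptor genes with at least 2 tested transcripts. None of them passed with diffSplice of limma (lowest adjusted p = 0.373), against 1.87% of all 909 genes tested, and 1 had an unadjusted p under 0.05, against 10.9% of all. This was Clec2i, an NK receptor ligand that belongs to a cluster of similar lectin genes. A form of 4014 bases made up 11.4% and 5.0% of its FPKM in the MST1-deficient libraries and 55.1% and 36.0% in wild type. A form of 3036 bases made up 43.8% and 45.9% in MST1-deficient libraries against 0% and 21.2% in wild type. The groups did not overlap in either share. The Clec2i sum was 13.9 and 4.40 FPKM against 8.44 and 4.53 FPKM, with overlap.

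**Figure D4:**
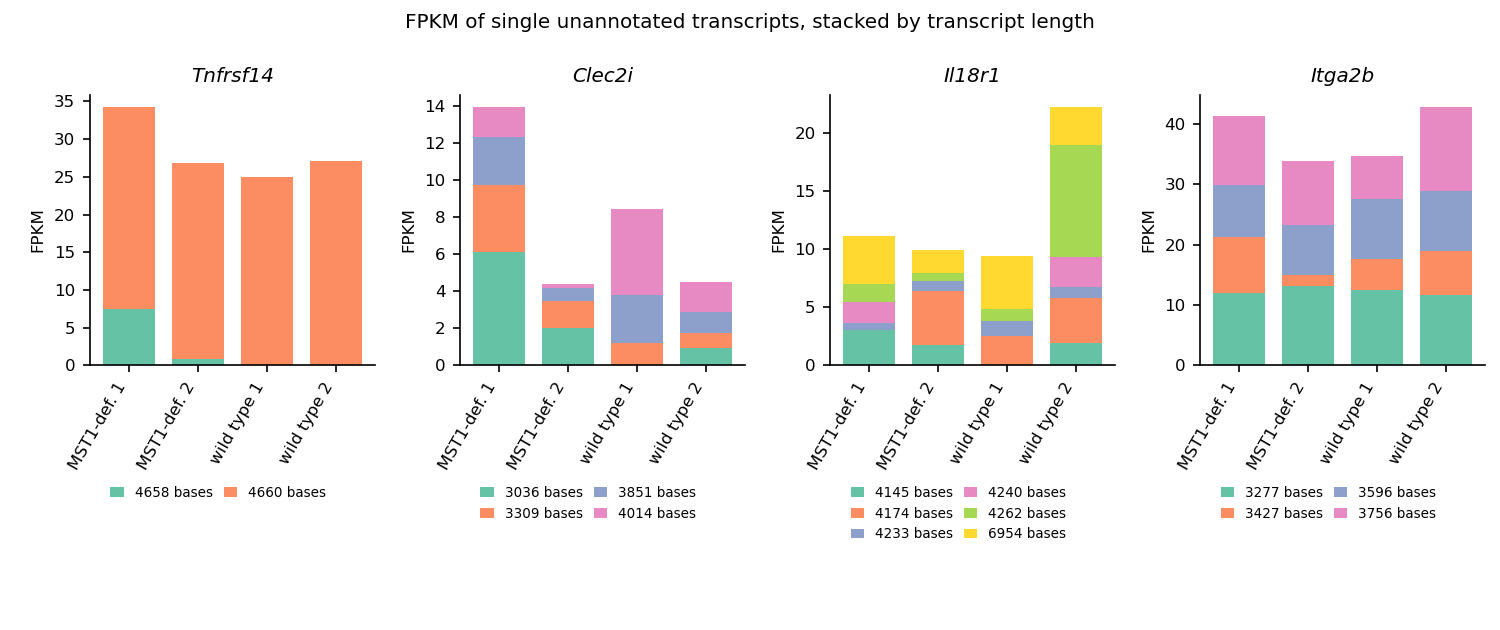
FPKM of single unannotated transcripts of Tnfrsf14, Clec2i, Il18r1 and Itga2b, stacked by transcript length, with the 2 MST1-deficient libraries left of the 2 wild-type libraries in each panel. The form of 4658 bases of Tnfrsf14 is at 0 in wild type, the form of 4014 bases makes up a larger share of Clec2i in wild type, and the form of 4262 bases of Il18r1 stands out in wild-type replicate 2.

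Il18r1 had 6 forms, among them one of 4262 bases, at 1.55 and 0.730 FPKM in the MST1-deficient libraries and 1.03 and 9.64 FPKM in wild type, which was the largest part of the high sum in wild-type replicate 2. In Cd300lf, the form of 3618 bases made up 56.0% and 41.6% of the FPKM in MST1-deficient libraries against 73.9% and 62.7% in wild type, without overlap (limma diffSplice adjusted p = 0.835). In Ccr3, a form of 3389 bases was at 0 in MST1-deficient replicate 1 and made up 42.8% in replicate 2, against 46.4% and 46.7% in wild type. Of the 3 listed forms of Cd84, a SLAM family receptor, 2 had identical values in every library and may be 1 transcript listed under separate identifiers.

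The transcripts of the receptor and integrin genes had a median length of 3398 bases, against 3882 for all annotated genes, and 48 of the 71 genes (67.6%, against 66.0%) had a single listed transcript. The median of the mean FPKM was 2.21 for receptor genes and 1.89 for all genes, and 12 receptor genes (16.9%, against 14.4%) had a mean of at least 10 FPKM. In all, 32 of the 71 lay in 10 clusters in which a neighbouring member started within 250 kb, and the largest were the 8 Cd300 genes and the 6 IL-1 and IL-18 receptor genes.

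Genes that act behind these receptors were followed as well. Of 172 genes on 6 pathway lists (JAK-STAT, Toll-like and IL-1, TNF, integrin, ITAM and ITIM, and chemokine receptor signalling), 74 had a listed transcript and 46 were tested. None passed with edgeR, with 22 positive and 24 negative values and a median log2 fold change of -0.05, against 0.01 for all genes. At an unadjusted p under 0.05 there were 3, or 6.52% against 5.65% of all genes tested, and these 3 stood on the ITAM and ITIM list. Of them 2 had higher values, against 3.01% of all genes in that direction, and 1 had lower values, against 2.64%. Prkcd, a protein kinase C of myeloid signalling, had 20.3 and 12.8 FPKM in MST1-deficient libraries against 7.38 and 7.05 FPKM in wild type (log2 fold change 1.23, SE 0.267, edgeR adjusted p = 0.516). Pik3cd, a leukocyte PI3 kinase subunit, had 51.3 and 38.2 FPKM against 27.3 and 32 FPKM in wild type (edgeR adjusted p = 0.813). Cblb, a ubiquitin ligase that restrains receptor signalling, had 1.37 and 1.65 FPKM against 3.78 and 4.94 FPKM (edgeR adjusted p = 0.673).

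In the integrin list, Rasgrp2, an activator of Rap1, had 107 and 124 FPKM in the MST1-deficient libraries against 93.2 and 80.9 FPKM in wild type, with no overlap (log2 fold change 0.48, SE 0.234, edgeR adjusted p = 0.941). Fermt3, the kindlin that switches on leukocyte integrins, had 80.5 and 49.0 FPKM against 61.7 and 78.8 FPKM. Rap1b had 33.2 and 38.1 FPKM against 43.7 and 32.5 FPKM, and Rassf5, which encodes RAPL, had no listed transcript. Jak3, a kinase of common gamma chain receptors, had 6.12 and 5.70 FPKM against 8.49 and 6.87 FPKM, and Ikbkb, a kinase that activates NF-kappaB, had 14.8 and 23.8 FPKM against 21.6 and 15.99 FPKM.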

How the data were processed

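Poly(A)-selected RNA from sorted granulocyte-monocyte progenitors was sequenced, with 2 MST1-deficient and 2 wild-type libraries, per the labels. Per the file headers, the authors supplied an expected count and an FPKM for each unannotated transcript; the expected counts are not normalised and often not whole. The submitters' processing notes give mm10 as the build; aligner, assembler and estimator are not given in the sources used here. Transcripts at 0 in a library are absent from its list. Library totals implied by FPKM, count and length were 6913612 and 8518608 for MST1-deficient and 7982481 and 7406865 for wild-type replicates 1 and 2. Symbols and positions came from RefSeq (GRCm38.p6, the same build), where 5051 of 5059 gene numbers had an entry.

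Estimated counts were summed per gene, rounded to whole numbers and compared by a 2-sided quasi-likelihood test in edgeR 4.0.16 with TMM scaling (R 4.3.3) for genes or transcripts with at least 1 FPKM in at least 2 of 4 libraries, with Benjamini-Hochberg adjustment over all tested and a threshold of 0.05. SEs were derived from the fold change and its F statistic. For the balance of transcripts, diffSplice (limma 3.58.1) was run on log2(FPKM + 0.5), which treats the transcripts of a gene as independent. The tests were checked on simulated data. The labels do not say how separately the 2 pools of a group were handled, so p-values measure the spread between 2 pools per group. An exact permutation test of 2 against 2 cannot go below 0.33. PCR copies were not marked, so floors of 3 counts cover counting error only. Alternatives were DESeq2 1.42.0, limma on FPKM, other size factors, filters and pseudocounts, a block for the replicate number, and leaving out libraries in turn.

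The members, lists, tests and naming rule were chosen with earlier results of these data known. The rule named the 2 highest genes of each family, the genes and transcripts with the smallest p and no overlap, transcripts listed in 1 group with at least 20 counts, genes ranked lowest by p in the balance test, and genes used in sorting; other genes were named by family role after their values were seen. Values of 1 member are not reported here; it is counted in the totals.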

Additional observations from a re-analysis of the deposited data

How the results depend on the processing

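No receptor gene, transcript or transcript balance passed the adjusted threshold under any alternative run, with DESeq2 (lowest adjusted p 0.0709 for gene sums), limma on FPKM, other size factors, filters and pseudocounts, or with a library left out (0 in each case). The number of receptor genes at an unadjusted p under 0.05 was 3, and it ranged from 3 to 7 under the settings that used all 4 libraries. Over all genes that number was 182, and it ranged from 152 to 221 under the same settings. With the replicate number as a block it was 7 for receptor genes and 208 for all genes, and 0 receptor genes passed (lowest edgeR adjusted p 0.512). The deviations of same-numbered libraries from their group means were only weakly correlated, with r = 0.0746 over 3221 genes. The labels do not say whether same-numbered libraries were handled together, and this was not tested. Over the whole table edgeR called 0 genes and 0 transcripts, DESeq2 46 and 100, and limma on log2(FPKM + 0.5) 6 and 6. Of all genes tested for the balance 17 passed, 26 with a pseudocount of 0.1, 8 with no filter, 11 with a filter on the mean, and 0 with the replicate block or without either wild-type library or MST1-deficient replicate 2.

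Receptor transcripts listed in both MST1-deficient libraries alone numbered 4 (3.64%, against 2.23% of all transcripts). At a minimum of 1 FPKM there was 1 (1.22%, against 2.41%), and at a minimum of 5 counts there were 2 (2.11%, against 2.17%). Those in both wild-type libraries alone numbered 1 (0.909%, against 1.97%). There were 3 at 1 FPKM (3.66%, against 3.48%) and 1 at 5 counts (1.05%, against 2.37%). With each library left out in turn, the median log2 fold change ranged as follows. It lay between -0.46 and -0.044 for the interleukin receptors, -0.012 and 0.743 for the integrins, 0.212 and 0.896 for the C-type lectins, -0.50 and 0.04 for the CD antigens, and -0.255 and 0.083 for all receptor genes; wild-type replicate 1 left out gave -0.044, 0.743 and 0.896 for the interleukin receptors, integrins and C-type lectins. For the Cd300 genes, an alternative chosen after seeing the data, it lay between -1.53 and -0.62. The lower bounds given with MST1-deficient replicate 1 left out were likewise chosen after seeing the data. The filter was applied anew each time a library was left out, so the medians do not always cover the same genes. Without wild-type replicate 1 they covered 4 C-type lectins and 6 Cd300 genes, against 5 and 7 with all libraries. How much of the shifts came from this was not tested. The genes and transcripts named for their small p kept the sign of the fold under the alternatives run for them. With 2 pools per group and transcripts of low count, differences smaller than the spread between replicates were not detectable. Larger ones could fail to pass as well. Cd226, at 3.57 and 3.98 FPKM in MST1-deficient against 8.02 and 7.39 FPKM in wild-type libraries, had an edgeR adjusted p of 0.775.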
